A study of Mus musculus with 12 samples.

Results

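The major urinary proteins (Mup) are small secreted carrier proteins of the lipocalin family, and 8 of their genes, Mup1, Mup2, Mup3, Mup4, Mup5, Mup8, Mup20 and Mup21, were followed here through 12 mouse liver libraries. The genes were found by matching the Entrez identifiers of a count table of 27179 genes to mouse symbols, and the list was selected on results of these same data, so their levels and fold changes are given as a description with no test. The mice were males, put at 8 weeks of age on chow (CD) or on a low-protein diet (LPD) for 1 week before injection and kept on it until sampling, at an age not given in the sources used here. The CD groups follow the sample titles, which say chow, whereas the count columns of the same 6 libraries carry the letters HPD, which the study uses for a high-protein diet in another tumor model. For this experiment its text names CD and LPD only, as the titles do. By hydrodynamic tail vein injection they received either a vector without oncogenes (Vec) or the oncogenes c-MET and ΔN90-β-catenin, a mutant that lacks the N terminus and escapes degradation. The sample titles call the controls WT, and that these mice received vector is taken from the study's text. The plasmids integrate through the Sleeping Beauty transposase, so only the transfected hepatocytes of an otherwise normal liver carry the oncogenes, both driven by the ubiquitously active EF1α promoter and c-MET being the human gene. Crossing the 2 injections with the 2 diets gave 4 groups of 3 mice, with 1 library per mouse. All were taken when the CD c-MET/β-catenin mice reached their end point, so on CD the oncogene livers were at an advanced tumor stage and on LPD they were taken at the same time and not at a matched tumor stage. The study names a mixed 129/Ola and C57BL/6 background for this tumor model and C57/Bl3 mice in its methods, and which of these applied to each library is not given in the sources used here. Tissue was taken from fasted mice in the early afternoon.

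Mup genes form a dense array of near-identical copies on mouse chromosome 4 and are transcribed above all in hepatocytes, which secrete the proteins into the blood for filtration into urine. There they bind and slowly release volatile pheromones, and adult males make far more of them than females. Pulsatile growth hormone, acting through its receptor and Stat5b, together with testosterone, thyroid hormone and glucocorticoid, is known to sustain their transcription, and fasting and food restriction are known to lower it. Mup20 encodes darcin, a male scent protein with pheromone activity of its own, while Mup4 and Mup5 are known mainly from lacrimal, nasal and salivary glands.

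All 8 genes lay on chromosome 4 of GRCm38, the assembly to which mm10 corresponds, with further Mup copies between them. Mup4 was at chr4:59956804-59960667, Mup2 at chr4:60135913-60139977, Mup8 at chr4:60218620-60222565 and Mup1 at chr4:60498012-60501960. Mup5 was at chr4:61831319-61858043, Mup20 at chr4:62011337-62054143, Mup3 at chr4:62083476-62087317 and Mup21 at chr4:62147832-62150841. In all, 22 rows of the table carried a Mup symbol. The copies differ in how well a read can be told apart, which sets how far each gene can be read on its own. In the GENCODE M21 transcripts, 86.7% of the distinct 50-base stretches of Mup3 occurred in no transcript of another gene, as did 87.6% of those of Mup4, 82.9% of those of Mup5 and 80.7% of those of Mup21. The share was 49.5% for Mup20, 38.4% for Mup1, 21.8% for Mup2 and 12.5% for Mup8, and with 100-base stretches it was 61.2% for Mup20 and 30.6% for Mup8. The coding sequence of Mup1 was 99.6% identical to that of Mup12, Mup2 was 99.6% identical to Mup9 and Mup8 was 99.4% identical to Mup14, whereas the nearest relative of Mup3 was Mup21 at 94.7% and that of Mup5 was Mup4 at 92%. Counts of Mup1, Mup2 and Mup8 are therefore uncertain one by one, and the summed counts of the 8 genes are given beside them.

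The start regions are shown because most members moved together between groups. RefSeq promoter windows on GRCm38.p6 were at hand for 4 of the 8 genes. The 150 bases before the start of each window's transcript, all on the minus strand, were chr4:62087318-62087467 for Mup3, chr4:62150842-62150991 for Mup21, chr4:60139857-60140006 for Mup2 and chr4:59960668-59960817 for Mup4. The Mup2 window belongs to a start inside the gene span given above and overlaps that span in most of its length, while the other 3 adjoin theirs. Capitals mark TATATAA, the letters of a TATA box.
Mup3: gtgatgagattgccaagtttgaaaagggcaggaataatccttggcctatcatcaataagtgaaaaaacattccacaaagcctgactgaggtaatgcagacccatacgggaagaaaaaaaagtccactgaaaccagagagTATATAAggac
Mup21: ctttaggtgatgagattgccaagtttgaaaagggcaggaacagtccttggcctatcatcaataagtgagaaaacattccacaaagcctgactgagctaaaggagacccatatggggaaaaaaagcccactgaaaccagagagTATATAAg
Mup2: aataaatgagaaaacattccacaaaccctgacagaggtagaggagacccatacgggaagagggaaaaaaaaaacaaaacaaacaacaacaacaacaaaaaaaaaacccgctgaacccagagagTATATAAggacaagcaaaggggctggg
Mup4: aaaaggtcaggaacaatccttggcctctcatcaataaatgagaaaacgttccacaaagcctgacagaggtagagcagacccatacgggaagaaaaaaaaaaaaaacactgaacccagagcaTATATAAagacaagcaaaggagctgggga
TATATAA was present in all 4 of these windows, beginning 11 bases before that start in Mup3, 8 in Mup21, 27 in Mup2 and 29 in Mup4, against 1.89% of 32851 promoter windows when the same 150 bases before the start are searched on both strands, and 3.24% over the full 300 bases. The spacing known for Stat5 sites, TTCNNNGAA, occurred in none of the 4 windows of 300 bases and in 8.3% of all windows, which says only that these letters are not in this stretch. Over 300 bases the windows of Mup3 and Mup21 were 90.2% identical, those of Mup3 and Mup4 77.6%, and those of Mup2 and Mup21 58.1%. The Mup4 window held the same letters as the others although Mup4 itself was barely counted in these livers.

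The libraries held between 19476209 and 31990267 counts. Levels are given as CPM (counts scaled to a common library size) after adjusting each library by the trimmed mean of M-values (TMM), whose factors ran from 0.864 to 1.12. Within each group no library was a duplicate of another. Hepatocyte markers were abundant in every library, with a summed level of 64470 to 115300 CPM. The labels name hepatocytes as the cell type, but whole liver was sampled. Summed markers of dividing cells were 88.83 to 122.1 CPM in the CD c-MET/β-catenin livers against 1.762 to 6.87 in CD Vec, 11.67 to 35.53 in LPD c-MET/β-catenin and 3.167 to 3.741 in LPD Vec. The 5 summed cholangiocyte markers reached 120.8 to 381.5 CPM in the CD c-MET/β-catenin group and stayed between 36.77 and 57.59 CPM in the other 3 groups, nearly all of it Spp1, at 111 to 368 against 28.2 to 48.1 CPM. Of the other 4, Krt19 also rose on CD and Krt7, Epcam and Sox9 did not pass, with means of 0.906, 0.945 and 4 CPM against 0.73, 1.37 and 5.35 in CD Vec. Summed stellate markers were 93.44 to 428.5 CPM against 55.98 to 103.5, carried by the collagen genes Col1a1 and Col3a1. Of the 6, Col1a1, Col3a1 and Acta2 rose on CD, Lrat, of resting stellate cells, fell from 13.5 to 29.6 CPM to 5.89 to 11 CPM, and Des and Pdgfrb did not pass. In bulk tissue fewer cells of a type and less RNA per cell cannot be told apart. The dataset numbers in the table header fall into 3 sets of neighbouring numbers: CD c-MET/β-catenin mice 1 and 2 in the first, the 3 LPD c-MET/β-catenin mice, LPD Vec mice 2 and 3, CD Vec mouse 3 and CD c-MET/β-catenin mouse 3 in the second, and the rest in the third. What the sets stand for is not given in the sources used here. The first set holds only CD c-MET/β-catenin mice and the third only Vec mice, where set and injection cannot be told apart.

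The summed Mup counts were low in every CD c-MET/β-catenin liver and in no other liver. The sum of the 8 genes was 6858, 14830 and 13820 CPM in the 3 CD Vec mice and 1015, 1204 and 1970 CPM in the 3 CD c-MET/β-catenin mice. It was 9146, 6662 and 8873 CPM in LPD Vec and 12950, 6628 and 9146 CPM in LPD c-MET/β-catenin. The 9 livers of the other groups therefore lay between 6628 and 14830 CPM, all above the highest CD c-MET/β-catenin liver. As a share of all counted reads, the 8 genes made up 0.634% to 1.28% of CD Vec libraries and 0.11% to 0.216% of CD c-MET/β-catenin libraries. The group means were 11840 ± 4340 CPM (SD, n = 3) in CD Vec, 1396 ± 506 in CD c-MET/β-catenin, 8227 ± 1360 in LPD Vec and 9573 ± 3180 in LPD c-MET/β-catenin, so that CD Vec, LPD c-MET/β-catenin and LPD Vec, in that order, overlapped each other and only CD c-MET/β-catenin stood apart.

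**Figure D1:**
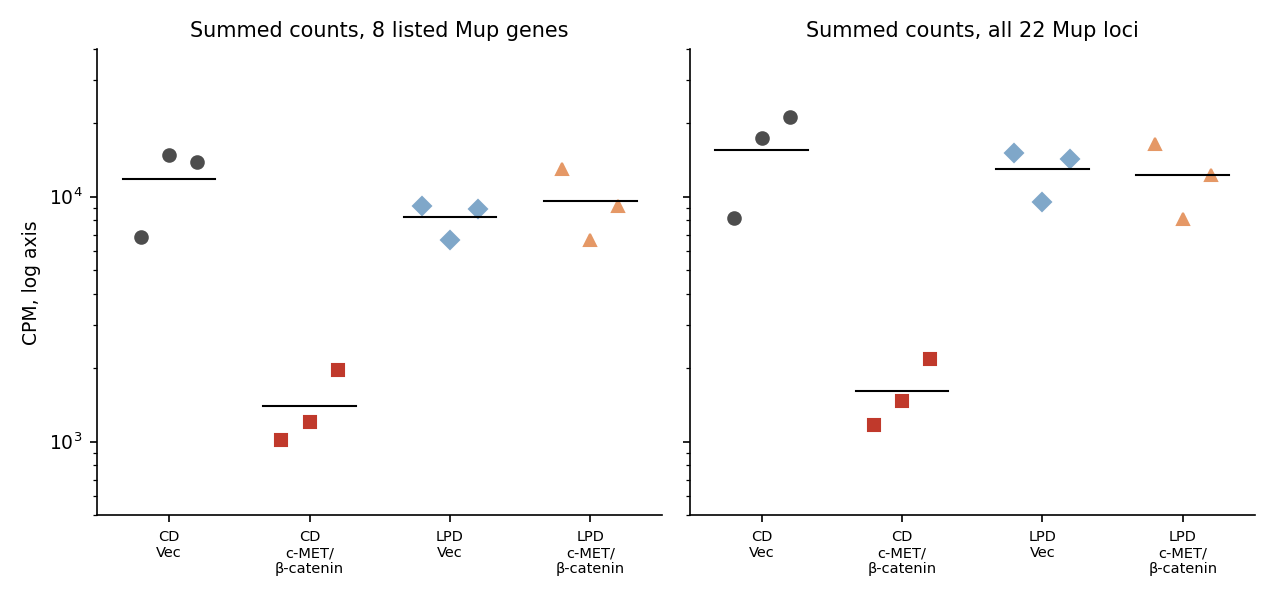
Summed CPM of the 8 listed Mup genes (left) and of all 22 Mup loci in the table (right) on a log axis, with 1 point per mouse and a line at each group mean. The 3 CD c-MET/β-catenin mice sit between 1015 and 1970 CPM on the left and between 1170 and 2173 CPM on the right, below all 9 other mice in both panels.

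On CD the sum was 8.48-fold lower with c-MET/β-catenin than with Vec (log2 fold change -3.08, SE 0.37). On LPD the same injection left the sum at a log2 difference of 0.22 (SE 0.34), with overlapping groups. Among c-MET/β-catenin livers it was 6.86-fold higher on LPD than on CD (log2 2.78, SE 0.36), and among Vec livers LPD differed from CD by -0.53 (SE 0.34), again with overlap. The difference between the oncogene effects on the 2 diets was 3.30 (SE 0.49) on the log2 scale. Each group enters 2 of the first 4 comparisons and all 4 groups enter the last, so they are not separate observations. Within the second set of header numbers, CD Vec mouse 3 had 13820 CPM and CD c-MET/β-catenin mouse 3 had 1970 CPM, a log2 difference of -2.81 with 1 mouse on each side. With the set as a term in the fit the CD value was -2.62 and the diet value in c-MET/β-catenin livers was 2.28.

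Mup3 had the most counts of the 8 genes in every library and carried most of the sum. Its level was 6362, 11100 and 9172 CPM in CD Vec, 698.6, 726.5 and 1044 CPM in the CD c-MET/β-catenin group, 7509, 5539 and 7117 CPM in LPD Vec and 8305, 5185 and 7041 CPM in LPD c-MET/β-catenin. The CD c-MET/β-catenin mice lay far below the other 9 with no overlap, and mice within a group differed by at most 1.75-fold. Its log2 fold change on CD was -3.43 (SE 0.27), a 10.8-fold lower level, and the LPD value was 0.03 (SE 0.25). Of the members, Mup3 had the smallest standard error, and its reads are among the best separable.

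Mup20, the gene of the pheromone darcin, was the exception among the tested members. It was at 127.1, 1494 and 3095 CPM in CD Vec and at 245.9, 414.4 and 872.1 CPM in the CD c-MET/β-catenin group. CD Vec mouse 1 lay below all 3 c-MET/β-catenin mice, so the groups overlapped, and the log2 fold change was -1.62 (SE 0.89), or -0.65 without CD Vec mouse 3. On LPD it was at 1334, 577.2 and 920.9 CPM with Vec and at 2774, 901.7 and 788.3 CPM with c-MET/β-catenin, also overlapping.

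Mup1, Mup2 and Mup8 belong to the central group of near-identical copies, and their 3 lowest levels were those of the CD c-MET/β-catenin livers. Mup1 was at 155.8, 505.2 and 89.73 CPM in CD Vec, 1.617, 3.711 and 2.133 in CD c-MET/β-catenin, 64.89, 36.06 and 189 in LPD Vec and 392.1, 109.6 and 34.36 in LPD c-MET/β-catenin. Mup2 was at 6.823, 22.5 and 458.2 CPM in CD Vec, 1.241, 1.55 and 1.16 in CD c-MET/β-catenin, 25.08, 22.55 and 44.7 in LPD Vec and 48.06, 6.418 and 174.5 in LPD c-MET/β-catenin. Mup8 was at 9.471, 147.6 and 351.1 CPM in CD Vec, 5.803, 4.526 and 4.902 in CD c-MET/β-catenin, 73.66, 67.56 and 111.8 in LPD Vec and 100.8, 36.4 and 670 in LPD c-MET/β-catenin. For all 3 genes each CD c-MET/β-catenin mouse lay below every mouse of the other groups, but the other groups spread widely. The log2 fold changes on CD were -6.67 (SE 1.14) for Mup1, -6.95 (SE 1.71) for Mup2 and -5.06 (SE 1.28) for Mup8. The Mup2 value rested on CD Vec mouse 3 and was -3.46 without it, and the Mup1 value was -5.65 without CD Vec mouse 2, as the Mup8 value was -3.93 without CD Vec mouse 3. For Mup8 the gap was narrow, from 5.803 CPM in the highest CD c-MET/β-catenin mouse to 9.471 in CD Vec mouse 1.

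Mup21, the nearest relative of Mup3, had the same pattern with a larger fitted difference on CD. Its level was 139.9, 1070 and 489.2 CPM in CD Vec, 26.39, 15.05 and 15.23 in CD c-MET/β-catenin, 131.3, 202.8 and 449.8 in LPD Vec and 1264, 203.1 and 348.4 in LPD c-MET/β-catenin. The highest CD c-MET/β-catenin mouse was below the lowest of the other 9, and the log2 fold change on CD was -4.90 (SE 0.91), or -4.06 without CD Vec mouse 2.

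Mup5 and Mup4 are the glandular members. Mup5 was at 56.17, 488.5 and 165.6 CPM in CD Vec and at 35.45, 38.25 and 30.61 in CD c-MET/β-catenin, a log2 fold change of -2.77 (SE 1.04) with no overlap, or -1.68 without CD Vec mouse 2 and -4.31 with a term for header number set. On LPD it was at 7.625, 216.9 and 40.09 CPM with Vec and 62.42, 186 and 89.22 with c-MET/β-catenin, so that LPD Vec mouse 1, and not a CD c-MET/β-catenin mouse, held the lowest level of all 12. Mup4 had 0 to 5 counts in every library, 0, 5 and 4 of them in CD Vec, 0, 1 and 0 in CD c-MET/β-catenin, 1, 4 and 1 in LPD Vec and 4, 2 and 2 in LPD c-MET/β-catenin. It did not pass the filter on low counts and was not fitted, and although the 2 c-MET/β-catenin groups did not overlap, counts this few support no comparison. The fold changes below therefore cover 7 of the 8 genes.

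**Figure D2:**
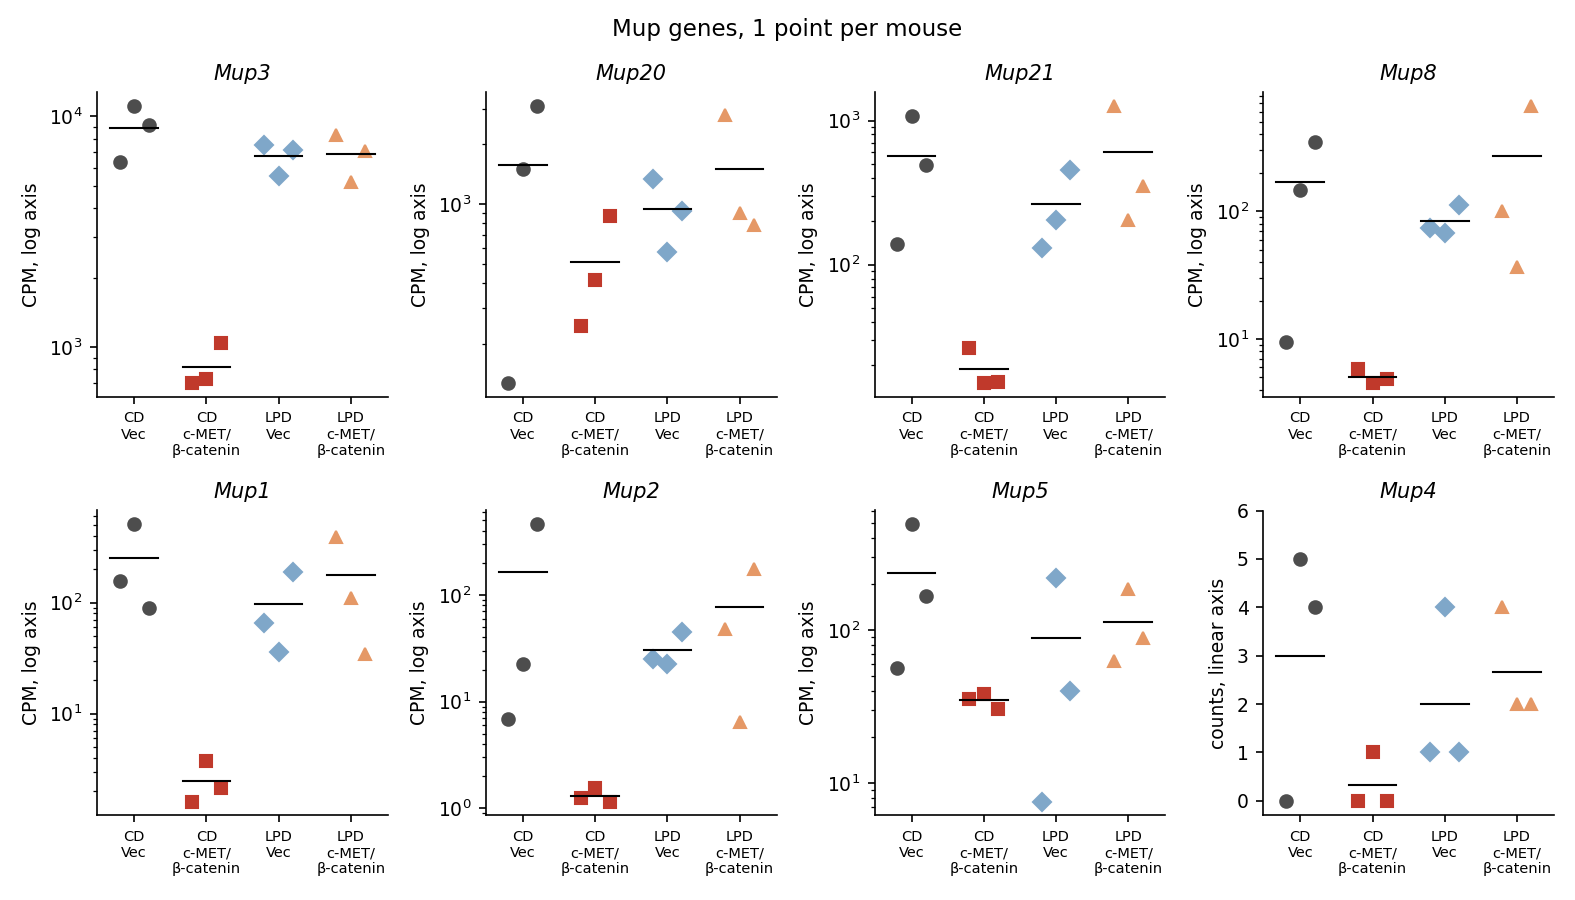
Level of each listed Mup gene with 1 point per mouse and a line at each group mean, as CPM on log axes that differ between panels, and for Mup4 as raw counts on a linear axis. In 6 of the 7 panels in CPM the 3 CD c-MET/β-catenin mice lie below the 3 CD Vec mice, the exception being Mup20, where CD Vec mouse 1 is at 127.1 CPM.

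Because the group differences were unequal between members, the make-up of the Mup counts was unlike as well. Mup20 made up 24.2%, 34.4% and 44.3% of the 8-gene counts in the 3 CD c-MET/β-catenin mice and 1.85% to 22.4% in the other 9. Mup3 made up 53% to 68.8% in CD c-MET/β-catenin, 66.4% to 92.8% in CD Vec, 80.2% to 83.1% in LPD Vec and 64.1% to 78.2% in LPD c-MET/β-catenin. Mup1 made up 0.108% to 0.308% of the counts in CD c-MET/β-catenin and 0.376% to 3.41% elsewhere. Mup5, at 1.55% to 3.49% of the counts in CD c-MET/β-catenin, lay inside the range of the other mice, 0.0834% to 3.29%, except for CD c-MET/β-catenin mouse 1.

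**Figure D3:**
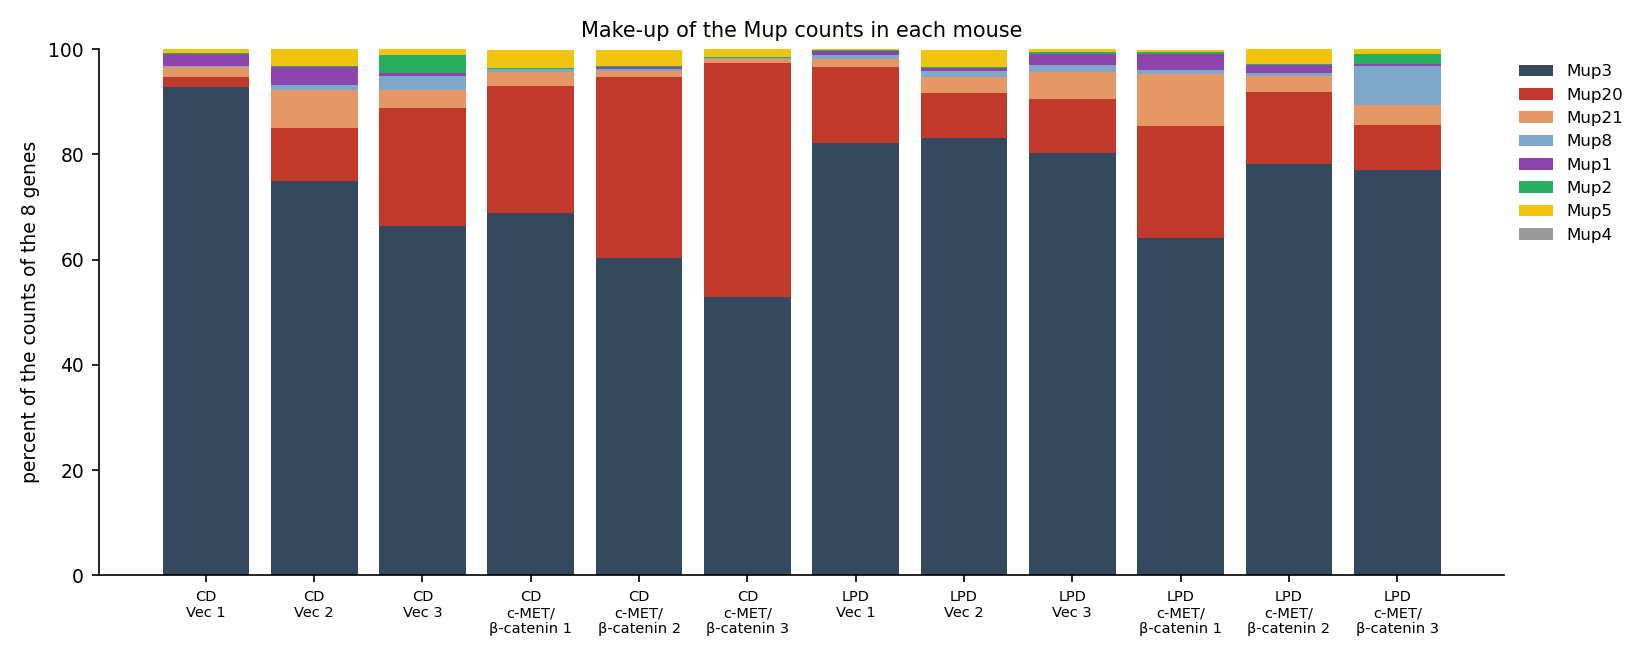
Stacked share of each of the 8 genes in the Mup counts of each mouse, in percent, with 1 bar per library. The Mup20 part covers 24.2% to 44.3% of the bar in the 3 CD c-MET/β-catenin mice and at most 22.4% in the others.

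Per kilobase of merged exons the order of the genes could be compared. In CD Vec livers Mup3 stood at 8310 ± 2230 CPM per kilobase (SD, n = 3), followed by Mup20 at 1690 ± 1600, Mup21 at 837 ± 694, Mup5 at 256 ± 243, Mup8 at 172 ± 174, Mup1 at 158 ± 141 and Mup2 at 122 ± 192. From Mup20 downwards the ranges of neighbours in this order overlapped. In CD c-MET/β-catenin livers the order was Mup3 at 771 ± 180, Mup20 at 550 ± 349, Mup5 at 37.6 ± 4.18, Mup21 at 27.9 ± 9.59, Mup8 at 5.15 ± 0.665, Mup1 at 1.57 ± 0.689 and Mup2 at 0.986 ± 0.154 CPM per kilobase. Here the ranges of Mup3 and Mup20 overlapped, at 654 to 978 against 265 to 940, which they did in none of the other 3 groups. Those of Mup5 and Mup21 overlapped as well, and so did those of Mup1 and Mup2, at 1.02 to 2.34 against 0.868 to 1.16.

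Over the 7 fitted members, all 7 log2 fold changes were below 0 on CD, with a median of -4.90, beside a median of -0.01 over all 13947 genes tested. In 6 of the 7 the 3 c-MET/β-catenin mice lay below the 3 Vec mice, beside 20.4% of all tested genes that did so and 22.2% that did the opposite. In c-MET/β-catenin livers 6 of the 7 were higher on LPD than on CD without overlap, beside 19.2% of all tested genes and 20.1% in the other direction, with a median of 5 and values from 1.54 for Mup20 to 6.18 for Mup1. Without LPD c-MET/β-catenin mouse 1 the Mup20, Mup1 and Mup21 values were 0.73, 4.88 and 3.87, without mouse 3 of that group those of Mup2 and Mup8 were 4.37 and 3.75, and without CD c-MET/β-catenin mouse 3 that of Mup20 was 2.18. On LPD none of the 7 separated c-MET/β-catenin from Vec, beside 13.5% of all genes higher and 11.6% lower without overlap, and the 7 values ran from 0.03 to 1.67. In Vec livers none separated LPD from CD, beside 8.13% higher and 9.02% lower, and the 7 values ran from -2.40 to -0.40. These counts were fixed in part by the choice of the genes and are not evidence for it. Most signs on LPD rested on single mice. Leaving out 1 library moved the LPD values to between -0.42 for Mup1, without LPD c-MET/β-catenin mouse 1, and 2.23 for Mup5, without LPD Vec mouse 2, in place of 0.35. Each of the 7 but Mup21 fell below 0 without one of the LPD c-MET/β-catenin mice, among them Mup8, from 1.67 to -0.30 without mouse 3. In Vec livers Mup2 turned from -2.40 to 1.08 without CD Vec mouse 3, and Mup8 and Mup20 turned to 0.12 and 0.24 without that mouse, while Mup1, Mup3, Mup5 and Mup21 stayed below 0 whichever library was left out.

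**Figure D4:**
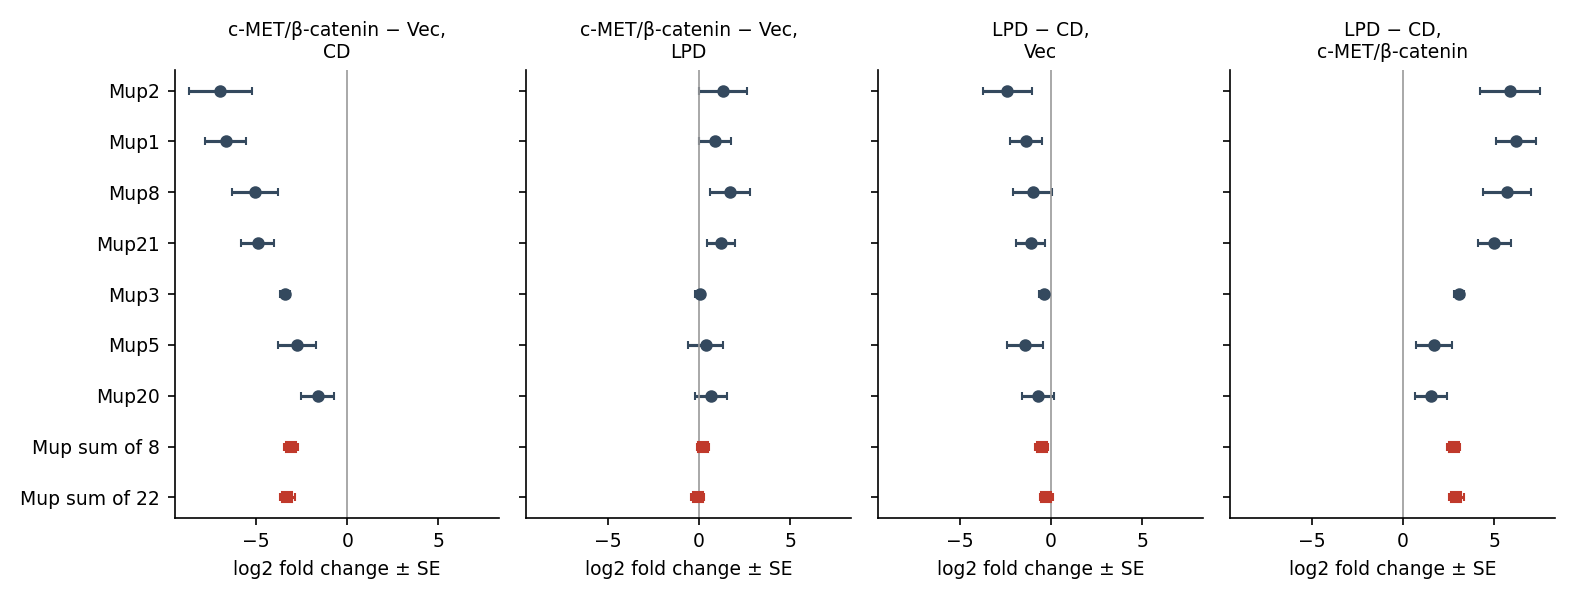
Fitted log2 fold change and its standard error for the 7 members that passed the filter (circles) and for the sums of 8 genes and of 22 loci (squares) in 4 comparisons. On CD the members run from -6.95 to -1.62 and the sum of 8 is at -3.08, on LPD the sum is at 0.22, and between diets in c-MET/β-catenin livers the sum is at 2.78.

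The 14 further Mup loci in the table were not listed but share reads with the members. Of these, 14 of 14 had a log2 fold change below 0 on CD, from -5.24 to -2.52 with a median of -4.36, and in 12 the groups did not overlap, beside 20.4% of all tested genes lower without overlap and 22.2% higher. On LPD 11 of the 14 were below 0 and 3 above, with a median of -0.46 where that of the members was 0.89, and between diets in Vec livers 11 were above 0 and 3 below, with a median of 0.27 beside -1.12 for the members. Summed over all 22 loci the level was 8181 to 21160 CPM in CD Vec, 1170 to 2173 in CD c-MET/β-catenin, 9495 to 15070 in LPD Vec and 8081 to 16370 in LPD c-MET/β-catenin. The log2 fold changes of that sum were -3.28 (SE 0.40) on CD, -0.08 (SE 0.37) on LPD, -0.27 (SE 0.37) between diets in Vec livers and 2.93 (SE 0.39) between diets in c-MET/β-catenin livers. The 8 listed genes held 60.7% to 90.7% of the counts of the 22.

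Mouse by mouse, the central copies differed strongly within the Vec groups. Mup14 had 855.5 CPM in CD Vec mouse 3 and 728.9 in LPD Vec mouse 1 but 8.86 to 42.14 CPM in the other 4 Vec mice. Mup11 had 959.5 and 1189 CPM in the same 2 mice, against 15.58 to 142.8 in the other 4, and Mup7 had 2807 and 2412 CPM against 171.6 to 1066. Mup2 and Mup8 peaked in CD Vec mouse 3 and LPD c-MET/β-catenin mouse 3, Mup1 in CD Vec mouse 2 and LPD c-MET/β-catenin mouse 1. In CD c-MET/β-catenin livers, in contrast, Mup2 and Mup8 stayed within 1.16 to 1.55 and 4.526 to 5.803 CPM. Over tested genes the median coefficient of variation between mice was 21.0% in CD Vec and 10.6% in LPD Vec, and that of Mup3 was 26.9% and 15.5%, but the CD Vec mice differed 67.1-fold in Mup2 and 24.3-fold in Mup20. The part of shared reads in these differences was not tested.

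The genes whose level over the 12 libraries was most like the Mup sum, by Pearson correlation of log2 CPM among 9414 genes, included Msl3 (r = 0.985), Slc22a28 (0.979), Ces3b (0.975) and Cyp2f2 (0.973). The 12 points share depth, scaling and the group difference, so these values describe the pattern only. Cyp2f2, a cytochrome P450, was at 1351 ± 167 CPM in CD Vec, 64.51 ± 20.6 in CD c-MET/β-catenin, 1010 ± 71.9 in LPD Vec and 1064 ± 123 in LPD c-MET/β-catenin (SD, n = 3). Ces3b, a carboxylesterase, was at 739 ± 318, 39.18 ± 12.1, 340.2 ± 64.1 and 327.1 ± 161 CPM in the same order. Msl3, part of a chromatin complex, spanned much less, from 22.56 ± 1.12 in CD c-MET/β-catenin to 31.08 ± 1.56 CPM in CD Vec. By Spearman correlation Msl3 ranked 3, Cyp2f2 28, Ces3b 54 and Slc22a28 119 among the same genes, and by deviations from the group means they ranked 11, 94, 12 and 7.

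Genes of the liver that are known to be higher in males, other than Mup genes, were tested in the fit over all 13947 genes with edgeR's quasi-likelihood test and Benjamini-Hochberg adjustment over all of them. This list and those below were chosen with earlier results of these data known, so their calls are no separate evidence beside the Mup result. Of 16 listed, all tested, 12 fell and none rose on CD with c-MET/β-catenin, beside 16.7% of all tested genes called lower and 18.7% called higher, with a median log2 fold change of -2.57. Leaving out 1 library left 8 to 13 of the 16 called. The calls of Cyp7b1, Elovl3, Gstp1 and Moxd1 were all lost without CD c-MET/β-catenin mouse 1 (edgeR adjusted p = 0.0778, 0.0647, 0.083 and 0.0762), and each was also lost without other single CD mice. Cyp4a12a, a fatty acid hydroxylase induced by androgen, was at 279 to 441 CPM in CD Vec and 23 to 37 CPM in the CD c-MET/β-catenin group and fell by 3.66 (SE 0.26, edgeR adjusted p = 8.52e-06). Hsd3b5, a steroid dehydrogenase, fell by 3.64 (SE 0.59, edgeR adjusted p = 0.000833), from 92.6 to 320 CPM to 9.32 to 25.9 CPM. Cyp2u1, Slco1a1, an organic anion carrier, and Cyp2d9 also fell, by 3.29, 1.71 and 1.92 on the log2 scale. Selenbp2, C6, Serpina1e and Bcl6 did not pass on CD, with log2 values of -2.82, -0.56, -1.06 and -0.48. In c-MET/β-catenin livers 11 of the 16 were higher on LPD than on CD, with a median of 2.09, beside 8.66% of all genes called higher and 11.3% lower. Leaving out 1 library left 7 to 11 called, and the calls of Cyp4a12b, Cyp7b1 and Gstp1 were each lost without any of 5 libraries (edgeR adjusted p = 0.0501 to 0.158) and that of Ugt2b38 without CD c-MET/β-catenin mouse 1 (0.0616).

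On LPD 1 of the 16 male-biased genes passed with c-MET/β-catenin, beside 0.165% of all genes called lower and 1.15% called higher. That gene was Bcl6, a transcriptional repressor, which fell by 2.15 (SE 0.25, edgeR adjusted p = 0.00182) from 52.2 to 70.8 CPM in LPD Vec to 12.5 to 15.3 CPM. It was also the only list gene that edgeR called higher with LPD in Vec livers (log2 1.66, SE 0.25, edgeR adjusted p = 0.0227), beside 0.186% of all genes called higher and 0.122% lower. Of male-biased genes that edgeR did not call there, Elovl3 was higher without overlap, at 53.7 to 83.5 CPM in CD Vec and 216 to 511 CPM in LPD Vec. Cyp4a12a and Cyp4a12b were lower without overlap, and DESeq2 called more of the list, as given below. The Bcl6 call was lost without CD Vec mouse 2 (edgeR adjusted p = 0.067), CD Vec mouse 3 (0.0521), LPD Vec mouse 2 (0.114) or LPD Vec mouse 3 (0.0755). Bcl6 therefore did not follow the Mup sum: it was at 14.7 to 22.3 CPM in CD Vec, lower than in LPD Vec, and at 10.3 to 20.1 CPM in the CD c-MET/β-catenin group. For 8 of the 16 the oncogene effect differed between diets with an interaction above 0 and for Bcl6 below 0, beside 4.49% and 4.42% of all genes.

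Genes known to be higher in female liver moved the opposite way on CD. Of 13 listed, 11 were tested and 7 rose with c-MET/β-catenin on CD, none fell, and the median log2 fold change was 4.46, beside 18.7% of all genes called higher and 16.7% lower. Leaving out 1 library left 5 to 8 of the 11 called. Hao2, a peroxisomal hydroxyacid oxidase, was at 0.0568 to 0.356 CPM in CD Vec and 7.68 to 28.3 CPM in the CD c-MET/β-catenin group (log2 6.51, SE 0.72, edgeR adjusted p = 7.9e-05). Cyp3a44, a cytochrome P450, was at 0.0568 to 0.306 and 2.89 to 4.2 CPM (log2 4.46, SE 0.50, edgeR adjusted p = 7.9e-05), and A1bg was at 0.398 to 1.67 and 8.95 to 66.9 CPM (log2 5.26, SE 0.91, edgeR adjusted p = 0.00128). The CD Vec levels of Hao2 and Cyp3a44 rest on few counts, so their fitted fold changes are imprecise. Cyp2a4, Cyp3a41a, Sult3a1 and Cux2 were the others that rose. Cyp2a4 went from 0.729 to 5.04 CPM in CD Vec to 27.9 to 268 CPM, the highest levels among the 7, and its call was lost without CD Vec mouse 2 (edgeR adjusted p = 0.0586) or mouse 3 (0.0518). Cux2, a homeobox repressor known to act on male-biased genes, rose by 2.43 (SE 0.72, edgeR adjusted p = 0.0209), a call lost without CD Vec mouse 1 (0.0718), CD Vec mouse 3 (0.0587) or CD c-MET/β-catenin mouse 1 (0.0815). Sult2a1, a defining female gene, stayed at or below 0.122 CPM in every library and was not tested.

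On LPD 2 of the 11 female-biased genes rose with c-MET/β-catenin, A1bg and Hao2, by 5.69 (edgeR adjusted p = 0.0201) and 3.52 (SE 0.73, edgeR adjusted p = 0.039), beside 1.15% of all genes called higher and 0.165% lower. The median over the 11 tested was 2.94, and 8 of the 11 were at an unadjusted p under 0.05, as were 8 on CD. Without LPD Vec mouse 1, 2 or 3 neither call held (edgeR adjusted p = 0.0925, 0.108 and 0.121 for A1bg and 0.15, 0.145 and 0.176 for Hao2), and that of Hao2 was also lost when LPD c-MET/β-catenin mouse 2 was left out (0.152), or CD Vec mouse 3 (0.0521), or CD c-MET/β-catenin mouse 3 (0.0531). Between diets in c-MET/β-catenin livers Cyp3a44 and Hao2 were lower on LPD and the other 9 did not pass, and the Cyp3a44 call needed both CD c-MET/β-catenin mouse 2 (edgeR adjusted p = 0.0568 without it) and LPD c-MET/β-catenin mouse 3 (0.0791). In Vec livers 0 of the 11 passed by edgeR between diets and 0 by DESeq2, with 1 at an unadjusted p under 0.05. Hao2 was at 1.17 to 3.44 CPM in LPD c-MET/β-catenin, above both Vec groups and below CD c-MET/β-catenin. The interaction passed for Cyp3a44 alone.

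**Figure D5:**
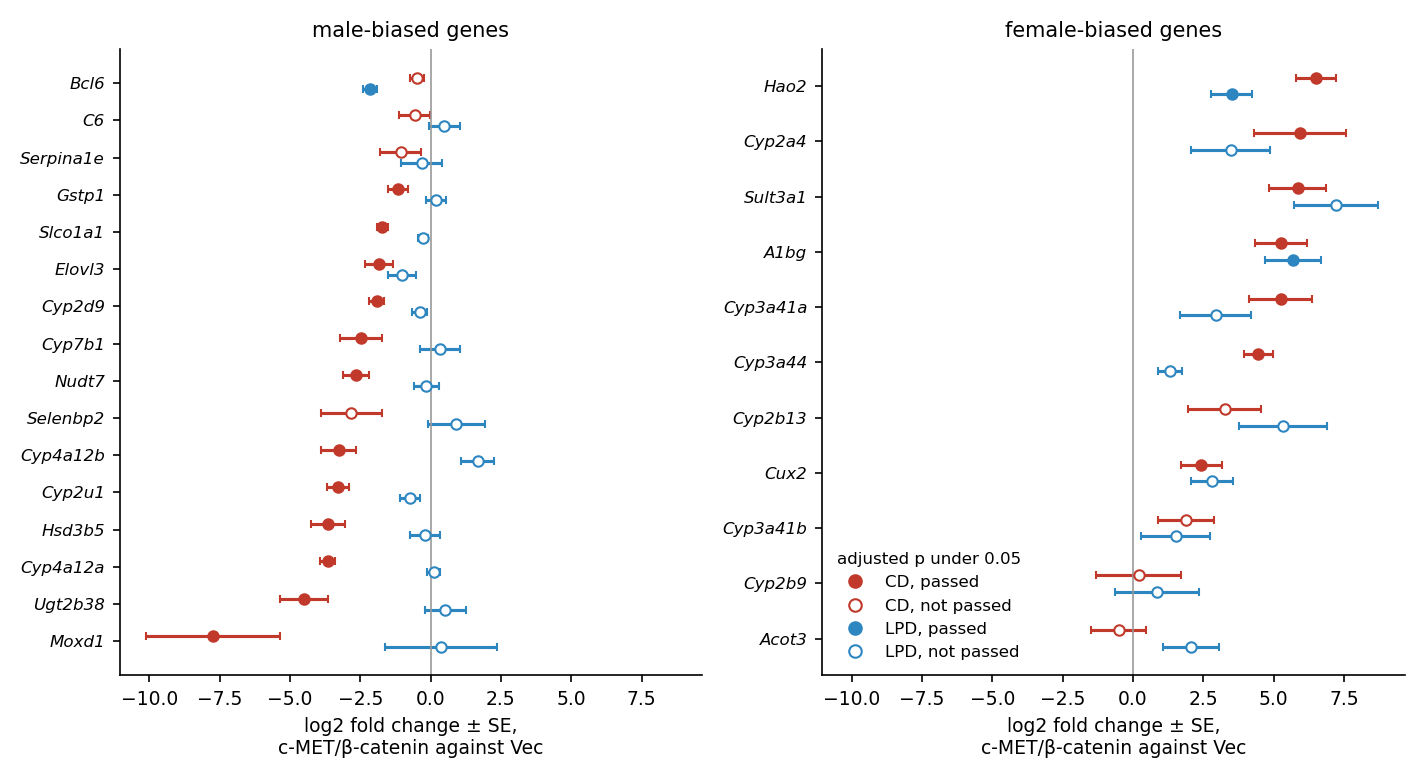
Log2 fold change and standard error with c-MET/β-catenin relative to Vec, on CD in red and on LPD in blue, for the tested male-biased (left) and female-biased genes (right), with filled points where the edgeR adjusted p was under 0.05. On CD 12 of 16 male-biased genes are filled, all left of 0, and 7 of 11 female-biased genes, all right of 0, whereas on LPD 1 and 2 are filled.

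Within groups the male-biased and female-biased sums were set beside the Mup sum. Serpina1e, an antitrypsin gene that did not pass on CD, made up 30.5% to 81.6% of the male-biased counts, so the sum is given without it, a choice made after its values were seen. CD Vec mouse 1, with the lowest Mup sum of its group, had a male-biased level of 3097 CPM against 7169 and 5785 in the other 2, and a summed female-biased level of 99.91 CPM against 14.04 and 8.067. Most of that 99.91 CPM was Cyp2b9, at 54.4, and Acot3, at 36.9 CPM, neither of them called on CD. LPD c-MET/β-catenin mouse 2, again lowest of its group in the Mup sum, had a male-biased level of 3520 CPM against 6086 and 4427. Its female-biased level was 386 CPM against 66.97 and 173.4. The 2 lists did not go together in CD c-MET/β-catenin, where mouse 1 had the lowest Mup sum and the lowest male-biased level, 1233 CPM against 1518 and 1637, but also the lowest female-biased level, 73.79 CPM against 265.1 and 410.6. In LPD Vec mouse 2 had the lowest Mup sum but a male-biased level of 4948 CPM, between 4471 and 6420. Mouse 1 of that group went against the pattern, with the highest Mup sum, 9146 CPM, and the lowest male-biased level, 4471 CPM. Its female-biased level was also the highest of the group, 100 CPM against 20.27 and 6.049. With Serpina1e the sum of CD c-MET/β-catenin mouse 1 was the highest of its group, 6686 CPM against 3497 and 4534, and the ranges of CD Vec and CD c-MET/β-catenin overlapped, at 4455 to 18470 against 3497 to 6686 CPM, whereas without it they did not, at 3097 to 7169 against 1233 to 1637. The female-biased sums of the same groups overlapped, at 8.067 to 99.91 against 73.79 to 410.6 CPM.

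Of the growth hormone axis, 11 of 12 listed genes were tested, and on CD with c-MET/β-catenin 4 fell and 3 rose, with a median log2 fold change of -0.32, beside 16.7% of all genes called lower and 18.7% higher. Ghr, the growth hormone receptor, was at 785 to 850 CPM in CD Vec and 152 to 339 CPM in the CD c-MET/β-catenin group and fell by 1.65 (SE 0.25, edgeR adjusted p = 0.000477). Igf1, the main secreted product of the axis, fell by 1.17 (SE 0.24, edgeR adjusted p = 0.00293), Igfals, which carries it in blood, by 1.74 (SE 0.26), and Onecut1, a hepatocyte factor, by 2.71 (SE 0.54). Stat5a, Socs3, a feedback inhibitor of cytokine receptors, and Ptpn1, a phosphatase, rose by 1.17, 1.67 and 0.48 on the log2 scale. Stat5b, the transducer tied to male-pattern expression, had a log2 value of 0.45 (edgeR adjusted p = 0.0757), and the feedback genes Socs2 and Cish had values of -0.32 and -1.53 that did not pass. On LPD 0 of the 11 passed by edgeR with c-MET/β-catenin and 0 by DESeq2, with 2 at an unadjusted p under 0.05, and Ghr was at 598 to 690 CPM in LPD Vec and 448 to 638 CPM in LPD c-MET/β-catenin. Between diets in c-MET/β-catenin livers Ghr, Igfals and Onecut1 were higher on LPD, by 0.99, 1.29 and 1.79, and Socs3 was lower, by a log2 value of -1.30. Only the Igfals call of these held without each library in turn. That of Ghr needed LPD c-MET/β-catenin mouse 1 (edgeR adjusted p = 0.0662 without it), and those of Socs3 and Onecut1 were each lost without any of 5 libraries (edgeR adjusted p at most 0.0752 and 0.0975). Ghrh had 0 counts in every library.

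Among 10 transcription factors and receptors reported to act on Mup genes, all tested, 4 fell on CD and none rose, with a median log2 fold change of -0.38, beside the same 16.7% and 18.7%. Cebpa, a hepatocyte factor, fell by 1.16 (SE 0.19, edgeR adjusted p = 0.000615), from 685 to 865 CPM to 239 to 418 CPM. Thrb, the thyroid hormone receptor of liver, fell by 0.84 (SE 0.17), Foxa2 by 0.71 (SE 0.16) and Ppara, the receptor of the fasting response, by 0.67 (SE 0.23). The Ppara call was lost without CD Vec mouse 1 or 3, CD c-MET/β-catenin mouse 1 or 3, or LPD Vec mouse 2 (edgeR adjusted p = 0.0527 to 0.132). Hnf4a, Nr3c1, the glucocorticoid receptor, and Zhx2 had values of -0.09, -0.19 and -0.08 that did not pass, and all 3 changed sign when libraries were scaled by total counts. Cebpa and Thrb were higher on LPD than on CD in c-MET/β-catenin livers, by 0.78 (SE 0.18) and 0.80 (SE 0.17). On LPD between injections 0 of the 10 passed by edgeR and 0 by DESeq2, with 1 at an unadjusted p under 0.05, and in Vec livers between diets 0 passed by either tool, with 3 at an unadjusted p under 0.05. The Mup sum was at -3.08 on CD, and the part of these factors in its level was not tested.

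Other lipocalins and other hepatocyte secretory proteins moved in both directions on CD. Of 9 tested lipocalins 4 fell and 2 rose with c-MET/β-catenin, beside 16.7% of all genes called lower and 18.7% higher, with a median of -0.57. Lcn2, an iron-siderophore carrier induced in inflammation, rose by 5.31 (SE 0.85, edgeR adjusted p = 0.000767), from 4.48 to 19.6 CPM to 222 to 859 CPM, and Apom rose by 0.86 (SE 0.17). Orm1 and Orm3, acute-phase glycoproteins, Ptgds and C8g fell by 1.22, 2.75, 1.67 and 1.22. Like the Mup sum, C8g had its lowest group mean in CD c-MET/β-catenin, 204 CPM against 475 in CD Vec, 405 in LPD Vec and 349 in LPD c-MET/β-catenin, and so did Ptgds at far lower levels. The Orm1 call was lost without CD Vec mouse 2 (edgeR adjusted p = 0.101), CD Vec mouse 3 (0.0514) or CD c-MET/β-catenin mouse 2 (0.0542). On LPD 0 of the 9 passed by edgeR and 0 by DESeq2, with 1 at an unadjusted p under 0.05. In Vec livers Orm2 and Orm3 fell with LPD, by 2.04 and 4.41, but the Orm2 call was lost without any of 6 libraries (edgeR adjusted p = 0.0535 to 0.179) and the Orm3 call without LPD Vec mouse 2 or 3 (0.0881 and 0.0591). Of 12 plasma protein genes 3 rose and 5 fell on CD, beside the same 18.7% and 16.7% of all genes, with a median log2 fold change of -0.05. All 5 that fell, Ttr, Apoa2, Apob, Apoc3 and Serpinc1, had their lowest group mean in CD c-MET/β-catenin. For Serpinc1, antithrombin, it was 1240 CPM against 2200 in CD Vec, 2310 in LPD Vec and 1750 in LPD c-MET/β-catenin. Alb, albumin, was at 66800 to 81000 CPM in CD Vec and 60700 to 68100 CPM in the CD c-MET/β-catenin group (log2 -0.20, SE 0.21, edgeR adjusted p = 0.495), with overlapping ranges. Ttr, transthyretin, fell by 0.87 (SE 0.20) and Trf, transferrin, rose by 0.75 (SE 0.17). The other rises, of Ahsg and Hpx, were both lost without CD Vec mouse 1 (edgeR adjusted p = 0.08 and 0.0829) or CD c-MET/β-catenin mouse 1 (0.0867 and 0.0803), and that of Hpx also without CD Vec mouse 3 (0.0664) or CD c-MET/β-catenin mouse 3 (0.0759).

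The markers of dividing cells were high in the 3 livers in which Mup genes were low, as were 2 of the 5 cholangiocyte markers, Spp1 and Krt19, and the collagen-led sum of the stellate markers in 2 of these livers, although Lrat of that list fell, and their part in the Mup result was not tested. Summed hepatocyte markers were 100800 to 106300 CPM in CD Vec and 89300 to 93950 CPM in the CD c-MET/β-catenin group. Most of that sum was Alb, and the part of hepatocyte content in the Mup result was not tested. CD c-MET/β-catenin mouse 3 had the lowest stellate level of its group, 93.44 CPM, and the highest Mup sum, 1970 CPM. The same mouse had the highest level of dividing-cell markers of its group, 122.1 CPM against 88.83 and 89.75. It was also the only mouse of its group in the second header set, so mouse and set cannot be told apart here. With the header number set as a term, which leaves 1 CD mouse of each injection to compare within a set, 4 of 16 male-biased and 5 of 11 female-biased genes passed on CD, and 0 genes of the growth hormone, factor, lipocalin and plasma protein lists did. Scaling by total counts alone put the median of all genes at 0.28 on CD in place of -0.01 and put 78.8% of the calls of that comparison above 0 in place of 52.8%, while the Mup sum was at -2.79 and 11 of 16 male-biased genes passed.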

How the data were processed

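Bulk RNA-seq of whole liver was measured in 12 mice, 3 in each of 4 groups set by the sample titles. Per the labels and the study's methods, the authors aligned reads to mm10 with HISAT2 and deposited whole-number read counts per Entrez gene, with no normalization. Versions, strand setting and the handling of reads that match several copies are not given in the sources used here, and the labels and methods differ on library kit and read length. No read-level correction for the near-identical Mup copies was possible, so sums are given beside single genes. Of 27179 genes, 25275 were matched to RefSeq symbols by Entrez identifier and 13947 passed edgeR's filter on low counts.

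From the counts, edgeR 4.0.16 (R 4.3.3) was run with TMM scaling, filterByExpr and the robust quasi-likelihood test in 1 fit with a coefficient per group and no covariate. Each Mup sum entered as 1 added feature. P-values were adjusted by Benjamini-Hochberg over all genes tested, and a call is an adjusted p under 0.05. Total counts of 19476209 to 31990267 limit single low genes such as Mup4. Because nothing states separate cultures or litters, p-values measure the spread between these mice. Members and lists were chosen with earlier results of these data known. The genes named are the members, every other Mup row, the genes of the lists and the 5 genes most like the Mup sum by Pearson correlation over the 12 libraries. A few genes that this rule names are not reported here. The fit, tested on simulated counts with 200 of 13947 genes changed 4-fold, recovered 83.5% of them for the oncogene comparison on CD, 87% on LPD, 86.5% for diet in Vec, 78% for diet in c-MET/β-catenin and 73.5% for the interaction, with 2.5% to 5.65% of calls false. The simulated counts took their spread from the same fit and held balanced changes in 1 group only, with no header sets. These rates need not hold in the data, where far more genes were called on CD. Same-numbered mice did not deviate together (correlations of -0.183 to 0.167), so the replicate numbers were not taken as pairs.

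Alternatives were DESeq2 1.42.0, total-count scaling, no filter, only the compared groups, a replicate block, a term for header number set, scaling per kilobase, other correlation measures and each library left out. Summing all 22 Mup loci, leaving out Mup3 and using only the second header set were chosen after seeing the data. Sequences and positions come from RefSeq and GENCODE on GRCm38. Mup4, below the filter, was not fitted.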

Additional observations from a re-analysis of the deposited data

Results flagged for a closer look

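For 22 genes of the lists the effect of c-MET/β-catenin differed between diets by edgeR's interaction test, adjusted over all 13947 genes, with adjusted p from 0.000418 to 0.0492 and 3 mice per group, beside 4.49% of all genes called above 0 and 4.42% below. Calls above and below 0 were 8 and 1 of 16 tested male-biased genes and 0 and 1 of 11 female-biased genes. They were 4 and 2 of 11 in the growth hormone axis and 3 and 1 of 10 factors, with Stat5b in both lists. For lipocalins they were 1 and 1 of 9, and for plasma proteins 0 and 1 of 12. Of the 22 calls, 16 were lost when some single library was left out, and 6 held without each in turn, those of Cyp4a12a, Cyp4a12b, Cyp2u1, Slco1a1, Igfals and Onecut1. The Ahsg call was lost without any of 11 libraries and those of Ghr, Cish, Stat5b, Foxa2 and Apom without any of 10 (edgeR adjusted p = 0.0503 to 0.12). Those of Cyp2d9, Nudt7, Stat5a, Thrb and Cebpa were lost without any of 7, that of C8g without any of 4, Hsd3b5 3, Ugt2b38 2, and Bcl6 and Cyp3a44 1 (edgeR adjusted p at most 0.0955). The value given is the log2 effect on LPD minus that on CD. Among male-biased genes it was 3.76 for Cyp4a12a, 4.94 for Cyp4a12b, 5.02 for Ugt2b38, 3.45 for Hsd3b5, 2.56 for Cyp2u1, 2.51 for Nudt7, 1.54 for Cyp2d9 and 1.44 for Slco1a1, and -1.67 for Bcl6, the repressor that went the other way. Among female-biased genes it was -3.14 for Cyp3a44. In the growth hormone axis it was 1.29 for Ghr, 2.21 for Igfals, 3.74 for Cish, 3.72 for Onecut1, -1.53 for Stat5a and -0.904 for Stat5b. Cish, a feedback inhibitor that growth hormone induces, was at 1.77 to 3.88 CPM in LPD Vec and 9.68 to 21.2 CPM in LPD c-MET/β-catenin livers. Among factors it was 0.941 for Thrb, 1.01 for Cebpa and 0.799 for Foxa2. Among lipocalins it was 1 for C8g and -0.877 for Apom, and among plasma proteins -1.14 for Ahsg. Dividing-cell markers, and Spp1 and Krt19 of the 5 cholangiocyte markers, were also highest in CD c-MET/β-catenin livers, and their part in these differences was not tested. Mup genes carry no test here, since they were chosen with results of these data known.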

How the results depend on the processing

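The Mup sum kept its sign on CD, between diets in c-MET/β-catenin livers and in the difference between diets under every alternative run. Without 1 library it ran from -3.42 to -2.9 on CD, -0.0613 to 0.424 on LPD, -0.796 to -0.337 between diets in Vec, 2.5 to 3.11 between diets in c-MET/β-catenin and 3.03 to 3.64 for the interaction. It moved by more than the spread between mice without Mup3, to -2.37 on CD, 0.859 on LPD and 2.25 between diets in c-MET/β-catenin, with a term for header number set, to 2.28 between diets and 2.82 for the interaction, and within the second set, to 2.23 between diets.

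The replicate numbers were tried as a replicate block, though nothing shows that they pair the mice. With it the Mup sum was -3.11 on CD, 4520 genes were called on CD, 16 between diets in Vec and 812 for the interaction, male-biased calls between diets in Vec fell to 0, lipocalin calls to 1 between diets in Vec and 1 for the interaction, plasma protein calls to 0 for the interaction, and the uncalled Socs2 value on CD turned to 0.21.

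Genes called, 4933, 184, 43, 2784 and 1243 in the order CD, LPD, diet in Vec, diet in c-MET/β-catenin and interaction, were 945, 75, 16, 618 and 85 with the header set term, which leaves few libraries to compare within a set. Male-biased calls were then 4 on CD, 0 for diet in Vec, 3 for diet in c-MET/β-catenin and 1 for the interaction, and female-biased calls 0 on LPD, 1 for diet in c-MET/β-catenin and 0 for the interaction. The growth hormone, factor, lipocalin and plasma protein lists had 0 calls on CD, for diet in c-MET/β-catenin and for the interaction, and the lipocalins 1 for diet in Vec. With only the compared groups, 3014 genes were called on CD, 505 on LPD and 3 for diet in Vec, with 0 male-biased and 0 lipocalin genes for diet in Vec, 2 growth hormone genes and 1 factor on LPD and 3 plasma proteins for diet in c-MET/β-catenin. DESeq2 called 497 on LPD, 339 for diet in Vec and 2083 for the interaction, with 4 male-biased and 3 growth hormone genes for diet in Vec, 4 female-biased genes on LPD, and 2 female-biased, 4 lipocalin and 5 plasma protein genes for the interaction. Total-count scaling called 66 for diet in Vec, and 1 factor and 3 plasma proteins for the interaction. Without the filter the interaction had 2 factors, 1 lipocalin and 0 plasma proteins. The share of calls above 0 moved from 50.4% to 29% for the interaction with total-count scaling. The cause of these moves was not tested.

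Without 1 library, genes called ran from 52 to 254 on LPD, 5 to 104 for diet in Vec, 1585 to 3659 for diet in c-MET/β-catenin and 391 to 1404 for the interaction. Male-biased calls ran from 0 to 2, 7 to 11 and 4 to 11 in the last 3 of these, and female-biased calls from 0 to 3 on LPD, 1 to 3 for diet in c-MET/β-catenin and 0 to 1 for the interaction. Growth hormone calls ran from 0 to 2 for diet in Vec, 1 to 4 for diet in c-MET/β-catenin and 2 to 5 for the interaction, factor calls from 0 to 1 for diet in Vec and 0 to 3 for the interaction, lipocalin calls from 0 to 3 in both, and plasma protein calls from 2 to 6 for diet in c-MET/β-catenin and 0 to 1 for the interaction.

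Uncalled values on CD that changed sign were Alb at 0.0832, Hnf4a at 0.205, Nr3c1 at 0.0964, Zhx2 at 0.209 and Socs2 at 0.00911 with total-count scaling, and Hnf4a at 0.103 with the header set term. Without 1 library Hnf4a ran from -0.2 to 0.123, Zhx2 from -0.28 to 0.116 and Socs2 from -0.756 to 0.976. Depth limits Mup4 and the female-biased genes, and shared reads limit Mup1, Mup2 and Mup8.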

Other observations

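Cish and Bcl6, chosen after their values were seen, are known to respond to growth hormone in opposite directions. In Vec livers 0 of the 11 tested genes of the growth hormone axis passed between diets by edgeR, with 5 at an unadjusted p under 0.05, and DESeq2 called 3. Cish was at 7.69 to 81.5 CPM in CD Vec and 1.77 to 3.88 CPM in LPD Vec (log2 -3.68, SE 0.75, edgeR adjusted p = 0.0697, not called), and at 9.68 to 21.2 CPM in LPD c-MET/β-catenin. Bcl6, which growth hormone is known to lower, was at 14.7 to 22.3 CPM in CD Vec and 52.2 to 70.8 CPM in LPD Vec, while the Mup sums of the same 2 groups overlapped. That Bcl6 call was lost without any of 4 libraries, with the replicate block (edgeR adjusted p = 0.061) and with the header set term (0.0541).

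The 2 mice with the highest Mup7, Mup11 and Mup14 levels, CD Vec mouse 3 and LPD Vec mouse 1, stood in different sets of header numbers.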
